A study of Mus musculus with 6 samples.

Results

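The 10 genes described here carry dietary fat across the enterocyte, the absorptive cell of the gut lining. They were chosen by name for that role, from 51912 genes in the deposited tables. The rule uses no measured value, but earlier results of these data were known when they were chosen. They are the fatty acid transporter Cd36, the fatty acid binding proteins Fabp1 and Fabp2, the triglyceride-making enzymes Mogat2 and Dgat1, the lipoprotein scaffold Apob and its lipid loader Mttp, and the apolipoproteins Apoa1, Apoa4 and Apoc3. The RNA came from epithelium sorted out of the small intestine of C57BL/6 mice kept under 3 conditions, and 2 libraries were sequenced per condition. Specific pathogen free (SPF) mice lacked only certain pathogens, germ-free (GF) mice carried no microbiota, and antigen-free (AF) mice had neither a microbiota nor foreign antigens from food. The libraries are called by the numbers in their titles, which are 3 and 4 for SPF, 1 and 3 for GF, and 2 and 3 for AF. Values are given in that order. Setting GF against SPF asks about the microbiota, AF against GF about food antigens where no microbiota is present, and AF against SPF about both at once. The labels state neither the fat content or other composition of the diets nor the age and sex of the mice. Any difference in diet composition therefore cannot be told apart from food antigens in the comparisons with AF.

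In the gut lumen, lipases split dietary triglyceride into fatty acids and monoglyceride, which enter the enterocyte through its brush border. Small binding proteins carry the fatty acids to the endoplasmic reticulum, where acyltransferases rebuild triglyceride. The microsomal transfer protein loads that triglyceride onto apolipoprotein B, further apolipoproteins join the particle, and the finished chylomicron leaves through the basolateral side into lymph.

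All 10 genes passed the filter on low counts, in a table of 13644 genes tested. No member passed the test in any comparison, by edgeR's quasi-likelihood test with Benjamini-Hochberg adjustment over all tested genes at 0.05. Relative to SPF, 9 of 10 had a lower fitted level in GF and 9 of 10 in AF, against 48.1% and 49.1% of all tested genes. Cd36 (GF) and Apoc3 (AF) were the exceptions. When libraries were scaled to brush border genes, 4 members were lower in GF and 7 in AF, against 13.8% and 13.4% of all genes. Without SPF replicate 4 the members' median log2 fold change was -0.02 in GF versus SPF and -0.56 in AF versus SPF. Cd36 was 3.65-fold lower in AF than in GF. In bulk RNA, fewer enterocytes and less of an RNA per enterocyte cannot be told apart. The 10 genes did not share 1 pattern: Fabp1, Apoa4, Apob, Mttp and Mogat2 were lower in both libraries of GF and of AF than in both SPF libraries, Cd36 was low in AF alone, the Apoa1 and Dgat1 values of the groups overlapped, and Apoc3 was higher in both AF libraries than in both GF libraries. These statements, and those on overlap for single genes unless TPM is named, are on CPM, the read count scaled to a common library total. On TPM, the deposited per-length scale, Apoa1 and Dgat1 were separated in the order SPF, GF, AF. On that scale 9 of 10 members were lower in both AF libraries than in both GF libraries, against 27.9% of all genes. TPM also moved the median log2 fold change of all genes by -0.34 in AF versus GF.

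The libraries held 16109488 to 19417054 expected counts, and 1 count was worth 0.0365 to 0.0785 CPM. CPM is given here after TMM scaling, which sets aside the most abundant and most different genes. The sorted cells carried all 14 of 14 brush border and 6 of 6 epithelial markers in every library. SPF replicate 4 stood apart from the other libraries, with a summed CPM of 2793 for 7 goblet cell markers (others 11789.6 to 28996), 102 for 7 crypt stem cell markers (others 173 to 441) and 32006 for the brush border markers (others 14526 to 20262). Mitochondrially encoded genes took 17.9 to 35.3% of the counts. The 2 genes called in GF versus SPF, Kdm5d and Eif2s3y, are Y-linked and were higher in GF, and both were also called as higher in AF than in SPF. Sex therefore cannot be told apart from the difference between SPF and the other groups. The table names carry a date-like mark that differs between the 3 groups, so a batch by date cannot be told apart from any comparison either. The labels do not say that the libraries of a group came from separate mice, so the p-values cover the spread between libraries, which may be technical.

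On the per-length scale of TPM (transcripts scaled to a fixed total per library), the order of the mean levels over the 6 libraries was Apoa1 (11195), Apoa4 (4407), Fabp1 (3568), Fabp2 (3393), Apoc3 (1995), Dgat1 (1169), Mttp (323), Apob (277), Mogat2 (168) and Cd36 (13.9). Apoa1 ranked between 10 and 18 among all genes by TPM in every library, so the apolipoprotein that is the main protein of HDL and also rides on chylomicrons was among the most abundant transcripts of this epithelium. Cd36 ranked between 3146 and 7372. The ranges of neighbours in this order overlapped over the libraries, with these exceptions. The lowest Apoc3 value (1449) was above the highest Dgat1 value (1386), and the lowest Dgat1 value (1062) above the highest Mttp value (546). The lowest Mogat2 value (89.5) was above the highest Cd36 value (23.9). Although their ranges overlapped, Apoa1 was above Apoa4, and Apob above Mogat2, within every library. The 10 genes together took 2.87 and 4.13% of the counts in the SPF libraries, 2.19 and 2.34% in GF, and 1.83 and 1.66% in AF. On these unscaled shares both GF libraries lay below both SPF libraries and both AF libraries below both GF libraries. The totals include mitochondrially encoded genes, which took 18.1 and 27.2% in SPF, 17.9 and 32.1% in GF, and 35.3 and 28.7% in AF. Their part in the order of the shares was not tested. The summed CPM of the 10 genes after scaling did not keep the groups apart. It was 23047 and 50145 in SPF, 15481 and 26888 in GF, and 23164 and 16597 in AF.

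**Figure D1:**
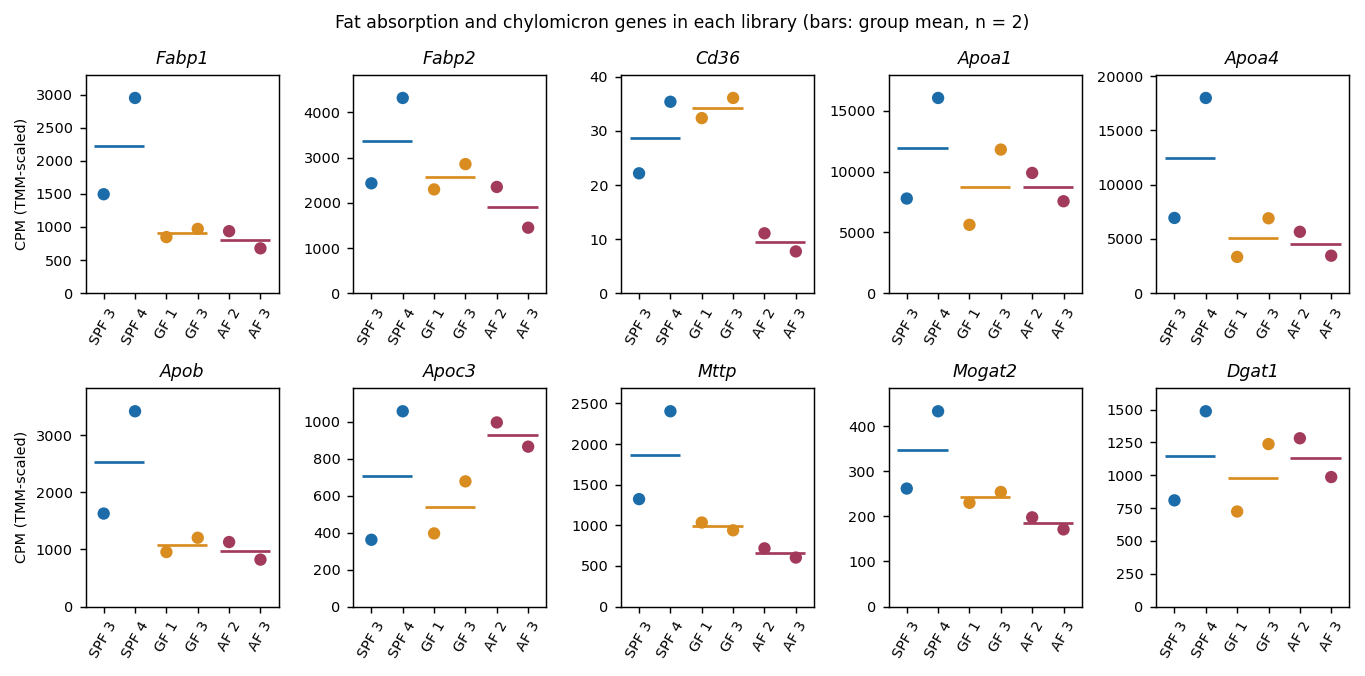
CPM after TMM scaling (vertical axis, from 0, separate for each gene) of the 10 genes in each of the 6 libraries, with 1 point per library and a bar at each group mean (n = 2). SPF replicate 4 is the highest library for 9 of the 10 genes, and Cd36 is the gene with both AF libraries (11.1 and 7.72) well below the other 4 (22.2 to 36.1).

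The share of features past each criterion gives the background for the members' counts. At an adjusted p below 0.05, edgeR called 0.0147% of the tested genes in GF versus SPF, 0.0147% in AF versus GF and 0.044% in AF versus SPF, against 0 of 10 members each time. In the test for any difference among the groups it called 0.0293% of the genes and 0 of 10 members, and the smallest adjusted p of a member was 0.590, for Cd36. At an unadjusted p below 0.05 that test had 3 of 10 members, against 7.33% of all genes. At an unadjusted p below 0.05, 2 members were lower in GF than in SPF (Fabp1 and Apob), against 3.51% of all genes. In AF versus GF, Cd36 was the 1 member lower at that level, against 2.07% of all genes. In AF versus SPF, 5 members were lower (Fabp1, Cd36, Apob, Mttp and Mogat2), against 6.52% of all genes, and no member was higher at that level in any comparison, against 3.2%, 1.52% and 4.76% of all genes. The 3 comparisons share libraries, so their counts are not separate pieces of evidence.

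Other tools gave other calls. With the comparisons taken in the same order (GF versus SPF, then AF versus GF, then AF versus SPF), DESeq2 called 0, 1 and 3 members, edgeR's likelihood ratio test called 0, 1 and 2, and limma on log2(TPM + 1) called 0 in each. The member called in AF versus GF was Cd36 by both tools. Between AF and SPF, DESeq2 called Fabp1, Cd36 and Mttp, and the likelihood ratio test called Cd36 and Mttp. Of all genes DESeq2 called 80, 51 and 269 (0.586%, 0.374% and 1.97%), the likelihood ratio test 97, 53 and 298 (0.711%, 0.388% and 2.18%) and limma 5, 9 and 8 (0.0413%, 0.0743% and 0.066%), against 2, 2 and 6 by the quasi-likelihood test. Without SPF replicate 3, the quasi-likelihood test called Cd36 and Mttp in AF versus SPF among 625 genes (4.37%).

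**Figure D2:**
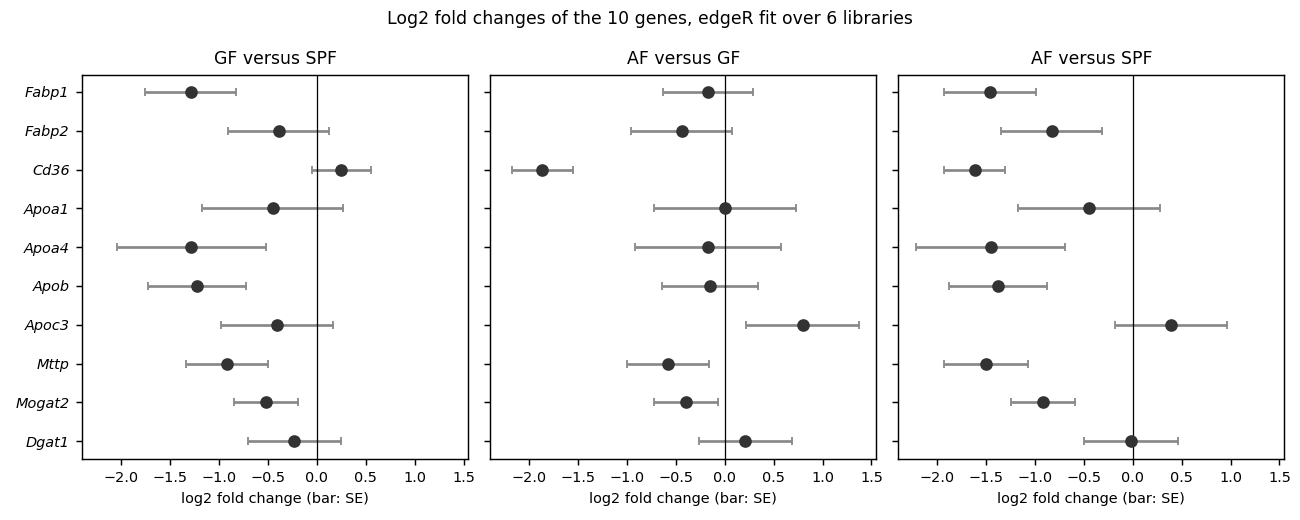
Log2 fold changes (horizontal axis) of the 10 genes in the 3 comparisons, in separate panels, with bars of 1 standard error from an edgeR fit over 6 libraries. Most points lie left of 0 in the 2 comparisons with SPF under this TMM scaling. Under brush border scaling 4 and 7 of 10 do, against 13.8% and 13.4% of all genes. Cd36 lies at -1.87 in AF versus GF, and no point passes the adjusted threshold.

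Cd36 takes up long-chain fatty acids at the brush border and also senses them. It lies on chromosome 5 from 17781690 to 17888801 on the minus strand (GRCm38). It was measured at 22.2 and 35.4 CPM in SPF, 32.4 and 36.1 in GF, and 11.1 and 7.72 in AF. Both AF libraries were below all 4 others, and SPF and GF overlapped. The log2 fold change was -1.87 (SE 0.31) in AF versus GF, with an adjusted p of 0.903 by edgeR's quasi-likelihood test with Benjamini-Hochberg adjustment. Its unadjusted p ranked 14 of 13644 genes. Against SPF it was -1.62 (SE 0.31, adjusted p = 0.304 by the same test) and for GF against SPF 0.25 (SE 0.30, adjusted p = 0.868 by the same test). The AF difference kept its direction in each of the 17 alternatives run for both comparisons, from -2.28 to -1.65 against GF and from -2.15 to -0.99 against SPF, while the small GF versus SPF difference turned negative (-0.05) without SPF replicate 3. In TPM it was 17.8 and 18.1 in SPF, 23.9 and 15.9 in GF, and 3.60 and 4.32 in AF.

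Endothelial cells, macrophages and fat cells also make Cd36. Of 5 adipocyte markers, all were at 0 counts in 5 libraries, and 1 was above 0 in GF replicate 3 (summed CPM 0.204). The summed CPM of 5 endothelial markers was 1.51 to 1.56 in SPF, 0.838 to 3.19 in GF and 1.10 to 2.02 in AF. In each library 2 of the 5 were at 0, though not always the same 2. The 7 macrophage and dendritic cell markers summed to 5.35 to 5.54 CPM in SPF, 3.61 to 10.04 in GF and 3.21 to 3.77 in AF. The AF range overlapped that of GF for both lists and lay below SPF for the macrophage list. The 8 lymphocyte markers, all above 0 in every library, summed to 185 and 68.5 CPM in SPF, 33.3 and 316 in GF, and 17.9 and 13.0 in AF, so that both AF libraries were below the other 4, as for Cd36. The part of these cells in the Cd36 difference was not tested.

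Fabp1 and Fabp2 are the cytosolic fatty acid binding proteins of the enterocyte, the first also binding bile acids and other lipids. Fabp1 lies on chromosome 6 from 71199827 to 71205023 on the plus strand, and Fabp2 on chromosome 3 from 122895072 to 122899506 on the plus strand (GRCm38). Fabp1 was at 1495 and 2949 CPM in SPF, 847 and 971 in GF, and 936.5 and 678 in AF. All 4 libraries without microbiota were below both SPF libraries, and GF and AF overlapped. Its log2 fold change was -1.29 (SE 0.47) in GF versus SPF and -1.46 (SE 0.47) in AF versus SPF, with adjusted p of 0.738 and 0.389 by edgeR's quasi-likelihood test with Benjamini-Hochberg adjustment. In AF versus GF it was -0.17 (SE 0.46). Without SPF replicate 4 the values for GF and AF against SPF were -0.72 and -0.89.

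Fabp2 was at 2432 and 4319.7 CPM in SPF, 2296 and 2856 in GF, and 2351 and 1449 in AF. Its groups lay closer together than those of Fabp1: GF overlapped both other groups, and AF replicate 2 was just below SPF replicate 3. Its log2 fold change was -0.39 (SE 0.51) in GF versus SPF and -0.83 (SE 0.52) in AF versus SPF, with adjusted p of 0.884 and 0.589 by the quasi-likelihood test. In GF versus SPF its direction turned to 0.13 under brush border scaling. Within a library, the ratio of Fabp1 to Fabp2 in TPM needs no scaling between libraries. It was 1.29 and 1.44 in SPF, 0.774 and 0.715 in GF, and 0.834 and 0.981 in AF, so Fabp1 exceeded Fabp2 per length in both SPF libraries and in none of the other 4. This ratio and the others below were chosen after the values were seen and were not tested.

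Mogat2 joins a fatty acid to monoglyceride, the main route of triglyceride rebuilding in the gut, and Dgat1 adds the last fatty acid. Mogat2 lies on chromosome 7 from 99219084 to 99238619 on the minus strand, and Dgat1 on chromosome 15 from 76502015 to 76511953 on the minus strand (GRCm38). Mogat2 was at 262 and 433 CPM in SPF, 230.1 and 254 in GF, and 198 and 171 in AF. The 3 groups did not overlap, with GF replicate 3 just below SPF replicate 3. Its log2 fold change was -0.52 (SE 0.33) in GF versus SPF (0.00 under brush border scaling), -0.39 (SE 0.33) in AF versus GF and -0.91 (SE 0.33) in AF versus SPF, the last with an adjusted p of 0.398 by edgeR's quasi-likelihood test with Benjamini-Hochberg adjustment.

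Dgat1 was at 808 and 1487 CPM in SPF, 724 and 1237 in GF, and 1281 and 986 in AF. The groups overlapped in CPM, and the log2 fold change was -0.23 (SE 0.48) in GF versus SPF, 0.21 (SE 0.48) in AF versus GF and -0.02 (SE 0.48) in AF versus SPF, the direction turning with the scaling in each. In TPM it was 1191 and 1386 in SPF, 1118 and 1188 in GF, and 1069 and 1062 in AF, where the 3 groups did not overlap. The ratio of Mogat2 to Dgat1 in TPM was 0.191 and 0.170 in SPF, 0.196 and 0.112 in GF, and 0.0837 and 0.0960 in AF. Both AF libraries were below the other 4, and GF replicate 1 was just above SPF while GF replicate 3 lay between SPF and AF.

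Related acyltransferases outside the set were looked at after their values were seen. Dgat2, an enzyme that also makes triglyceride, had 114 and 240.1 CPM in SPF, 80.2 and 118 in GF, and 178 and 133 in AF, and its groups overlapped. Mogat1, which carries out the same step as Mogat2, had no counts in either SPF library and 1.09 and 3.12 CPM in GF and 2.59 and 1.07 in AF. Against a floor of 3 counts over the SPF group, its mean was at least 25.6-fold higher in GF and at least 22.2-fold higher in AF. The adjusted p of Mogat1 was 0.738 for GF and 0.336 for AF against SPF by the quasi-likelihood test. In TPM, Mogat1 reached 4.41 at most, and Mogat2 was 89.5 at least.

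Apob is the single large protein around which each chylomicron is built, and Mttp encodes the subunit of the microsomal transfer protein that moves lipid onto it. Apob lies on chromosome 12 from 7977648 to 8016835 on the plus strand, and Mttp on chromosome 3 from 138089854 to 138144968 on the minus strand (GRCm38). Apob was at 1629 and 3423 CPM in SPF, 955 and 1205 in GF, and 1129.9 and 822 in AF. Both SPF libraries were above the other 4, and GF and AF overlapped. Its log2 fold change was -1.23 (SE 0.50) in GF versus SPF and -1.37 (SE 0.50) in AF versus SPF, with adjusted p of 0.738 and 0.400 by edgeR's quasi-likelihood test with Benjamini-Hochberg adjustment. In AF versus GF it was -0.15 (SE 0.49). Without SPF replicate 4 the 2 values against SPF were -0.60 and -0.74.

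Mttp was at 1322 and 2404 CPM in SPF, 1034 and 938 in GF, and 716 and 603 in AF. The 3 groups did not overlap, in the order SPF, GF, AF. The log2 fold change was -0.92 (SE 0.42) in GF versus SPF, -0.58 (SE 0.42) in AF versus GF and -1.50 (SE 0.43) in AF versus SPF, the last with an adjusted p of 0.389 by the quasi-likelihood test. Without SPF replicate 4 the values for GF and AF against SPF were -0.43 and -1.01. For AF versus SPF with all libraries, DESeq2 gave Mttp an adjusted p of 0.00824 and the likelihood ratio test 0.0398. In TPM, Mttp was 487 and 546 in SPF, 411 and 208 in GF, and 136 and 152 in AF. The ratio of Mttp to Apob in TPM was 1.34 and 1.14 in SPF, 1.59 and 0.999 in GF, and 0.775 and 0.853 in AF. In TPM, AF was below the other 4 libraries and SPF inside the GF range. The same ratio in counts was 0.812 and 0.702 in SPF, 1.08 and 0.778 in GF, and 0.634 and 0.733 in AF. On counts AF and SPF overlapped.

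Apoa1, Apoc3 and Apoa4 sit side by side on chromosome 9 (GRCm38): Apoa1 from 46228580 to 46230466 on the plus strand, Apoc3 from 46232933 to 46235636 on the minus strand and Apoa4 from 46240696 to 46243459 on the plus strand. The gaps between them are 2466 and 5059 bases. Apoa4 is a chylomicron apolipoprotein whose secretion follows fat absorption, and Apoc3 slows the clearance of triglyceride-rich particles. Of the 10 genes, 7 matched a promoter in the RefSeq table of GRCm38.p6, and the part of these windows upstream of the annotated gene could be shown for 5. The neighbours Apoa1 and Apoa4 are shown because the ratio of their levels differed between the SPF and the other libraries, and Fabp2 because it shares a sequence match with Apoa4. Each runs 5′ to 3′ on the plus strand, from chr9:46228380-46228569, chr9:46240594-46240695 and chr3:122894822-122895011, and starts 250 bases before the RefSeq start. Capitals mark a match to CAAAGTNCA, part of the DNA element of HNF4 factors, searched on both strands.
Apoa1: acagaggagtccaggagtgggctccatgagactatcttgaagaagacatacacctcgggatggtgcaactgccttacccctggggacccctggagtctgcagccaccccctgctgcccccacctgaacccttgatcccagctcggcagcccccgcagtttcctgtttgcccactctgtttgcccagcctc
Apoa4: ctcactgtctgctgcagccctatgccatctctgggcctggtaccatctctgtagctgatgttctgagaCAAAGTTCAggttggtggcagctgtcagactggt
Fabp2: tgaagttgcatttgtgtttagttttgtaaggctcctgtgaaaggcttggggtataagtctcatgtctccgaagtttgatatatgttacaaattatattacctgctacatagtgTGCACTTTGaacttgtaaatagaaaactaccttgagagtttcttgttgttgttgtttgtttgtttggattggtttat

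The match lies 182 to 174 bases before the RefSeq start of Apoa4 and, on the other strand, 137 to 129 bases before that of Fabp2. For Apoa4 the RefSeq start (46240844) lies inside the annotated gene, which begins at 46240696, so the match is nearer the annotated start. For Fabp2 the RefSeq and annotated starts are the same. The match does not overlap another motif searched. In 32851 RefSeq promoters, the window from 250 to 61 bases before the start held this motif in 0.892%. The TATA box letters TATAAA were found in 8.73% of these windows. Letters bound by factors of the Gata family, AGATAA, were found in 8.06%. No member window held either of the last 2, and letters nearer the start than 61 bases were not searched. A match of letters is no binding site, and no match says only that these letters are not in this window. Hnf4a, the gene of an HNF4 factor, was at 427 and 412 CPM in SPF, 343 and 296 in GF, and 329 and 363 in AF, with a log2 fold change of -0.39 (SE 0.27) in GF versus SPF.

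Apoa1 was at 7783 and 16052 CPM in SPF, 5623 and 11809 in GF, and 9889 and 7561 in AF. The groups overlapped in CPM, and the libraries of SPF and of GF differed within the group by more than the group means differed. The log2 fold change was -0.45 (SE 0.72) in GF versus SPF (0.05 under brush border scaling), 0.00 (SE 0.72) in AF versus GF and -0.45 (SE 0.72) in AF versus SPF (0.24 under brush border scaling), with adjusted p of 0.900 and 0.860 in the 2 comparisons with SPF by edgeR's quasi-likelihood test with Benjamini-Hochberg adjustment. In TPM, Apoa1 was 12669 and 16189 in SPF, 9913 and 11616 in GF, and 8338 and 8449 in AF, without overlap of the groups. Apoa4 was at 6933 and 17985 CPM in SPF, 3343 and 6903 in GF, and 5655 and 3455 in AF. All 4 other libraries were below both SPF libraries, GF replicate 3 by a small margin, and SPF replicate 4 was far above the rest. Its log2 fold change was -1.28 (SE 0.76) in GF versus SPF and -1.45 (SE 0.76) in AF versus SPF, with adjusted p of 0.766 and 0.522 by the same test. Without SPF replicate 4 these values were -0.44 and -0.61.

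Apoc3 was the only member with both AF libraries above both GF libraries. It was at 361 and 1057 CPM in SPF, 396 and 678 in GF, and 997 and 866 in AF. The AF values lay inside the SPF range, whose ends were the lowest and the highest library. The log2 fold change was -0.40 (SE 0.57) in GF versus SPF (0.19 under brush border scaling), 0.79 (SE 0.58) in AF versus GF and 0.39 (SE 0.57) in AF versus SPF, with an adjusted p of 1.00 in AF versus GF by the quasi-likelihood test. The value against SPF was 1.36 without SPF replicate 4 and -0.19 without SPF replicate 3.

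Within libraries, the 3 neighbours took different shares. The ratio of Apoc3 to Apoa4 in TPM was 0.246 and 0.281 in SPF, 0.564 and 0.468 in GF, and 0.834 and 1.20 in AF. The groups did not overlap, and AF replicate 3 was the library in which Apoc3 exceeded Apoa4 per length. The ratio of Apoa4 to Apoa1 was 0.465 and 0.583 in SPF, 0.310 and 0.304 in GF, and 0.298 and 0.238 in AF. Both SPF libraries were above the other 4, and the part of cell makeup in this ratio was not tested. The ratio of Apoc3 to Apoa1 was 0.114 and 0.164 in SPF, 0.175 and 0.143 in GF, and 0.249 and 0.285 in AF, with AF above the other 4 libraries and SPF and GF overlapping.

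**Figure D3:**
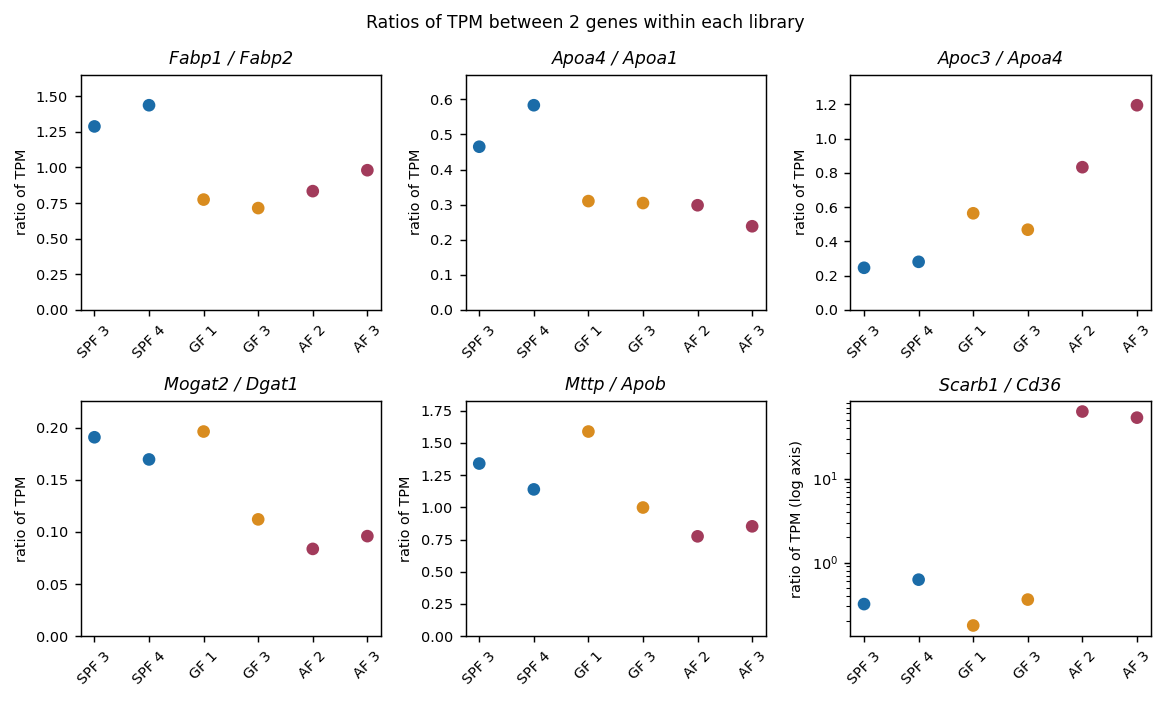
Ratios of TPM between pairs of genes within each of the 6 libraries (1 point per library, axes from 0 except the log axis of Scarb1 to Cd36). Apoc3 to Apoa4 runs from 0.246 in an SPF library to 1.20 in an AF library without overlap of the groups, and Scarb1 to Cd36 lies at 62.9 and 53.2 in AF and at or below 0.626 elsewhere.

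The 10 genes followed the libraries as well as the groups. SPF replicate 4 was the highest library for 9 members, and GF replicate 3 for Cd36. AF replicate 3 was the lowest library for 6 members, GF replicate 1 for Apoa1, Apoa4 and Dgat1, and SPF replicate 3 for Apoc3. The median of the members' log2 CPM, centred per gene, was 0.09 and 0.81 in SPF, -0.47 and 0.10 in GF, and -0.19 and -0.74 in AF. The same median over the 14 brush border genes was -0.11, 0.84, -0.46, 0.14, 0.12 and -0.31 in that order of libraries, and over the 7 crypt stem cell genes 0.90, -2.65, 1.34, -0.06, -0.04 and 0.34. Members and brush border genes were therefore both highest in SPF replicate 4 and low in GF replicate 1 and AF replicate 3, and stem cell genes were lowest in SPF replicate 4. The part of cell makeup in the members' differences was not tested. The 8 proximal markers summed to 3455 and 7048 CPM in SPF, 2954 and 3925 in GF, and 3335 and 2842 in AF, and the 10 distal markers to 1439 and 1682, 2521 and 1892, and 1711 and 1290.2.

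**Figure D4:**
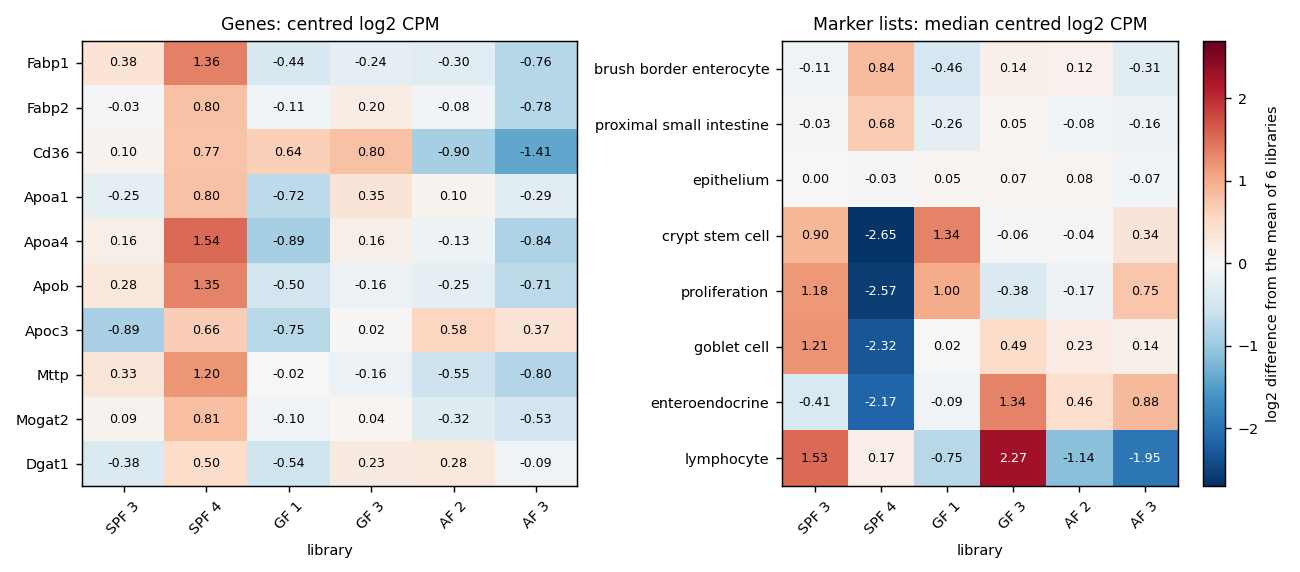
Log2 CPM centred per gene (colour and printed value) of the 10 members (left), and the median of the same over each of 8 marker lists (right), in the 6 libraries. The column of SPF replicate 4 is above 0 for all 10 members and holds the highest value of 9, and the brush border list has its highest value (0.84) there too.

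The median log2 fold change of the members was -0.49 in GF versus SPF, -0.17 in AF versus GF and -1.14 in AF versus SPF, against 0.02, -0.02 and 0.01 over all tested genes. Of all tested genes 48.1%, 52.9% and 49.1% were lower in the 3 comparisons, against 9, 7 and 9 of the 10 members. Both libraries of GF lay below both of SPF in CPM for 5 members, against 17.1% of all genes. Both AF libraries lay below both GF libraries for 3 members (Cd36, Mttp and Mogat2), against 17.8%, and below both SPF libraries for 7 (Fabp1, Fabp2, Cd36, Apoa4, Apob, Mttp and Mogat2), against 22.6%. In TPM the corresponding counts were 7, 9 and 9 of 10 against 11.7%, 27.9% and 35.9% of all genes, and Apoc3 was the member not below in both AF comparisons. TPM moved the median of all genes by -0.34 in AF versus GF and by -0.32 in AF versus SPF, so the counts in TPM hold that shift.

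The differences depended on the scaling. When libraries were scaled to the mean of the 14 brush border genes, the members' median was 0.02 in GF versus SPF, -0.03 in AF versus GF and -0.47 in AF versus SPF, and the median of all genes moved by 0.40, 0.14 and 0.54. Under it 4, 6 and 7 of the 10 members were lower. Fabp1 (-0.73), Apoa4 (-0.73), Apob (-0.67) and Mttp (-0.35) were still lower in GF than in SPF, and Fabp2, Apoa1, Apoc3, Mogat2 and Dgat1 turned to 0.13, 0.05, 0.19, 0.00 and 0.27. Between AF and SPF, Cd36 (-0.99), Mttp (-0.82), Fabp1 (-0.78), Apoa4 (-0.73), Apob (-0.68), Mogat2 (-0.26) and Fabp2 (-0.19) were still lower, and Apoa1 and Dgat1 turned to 0.24 and 0.65. The brush border list is not flat itself: Anpep, a peptidase in it, was at 2990.4 and 3807 CPM in SPF, 3671 and 3677 in GF, and 925 and 748 in AF. Without SPF replicate 4 the members' median was -0.02 in GF versus SPF and -0.56 in AF versus SPF, and without SPF replicate 3 it was -0.93 and -1.52.

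**Figure D5:**
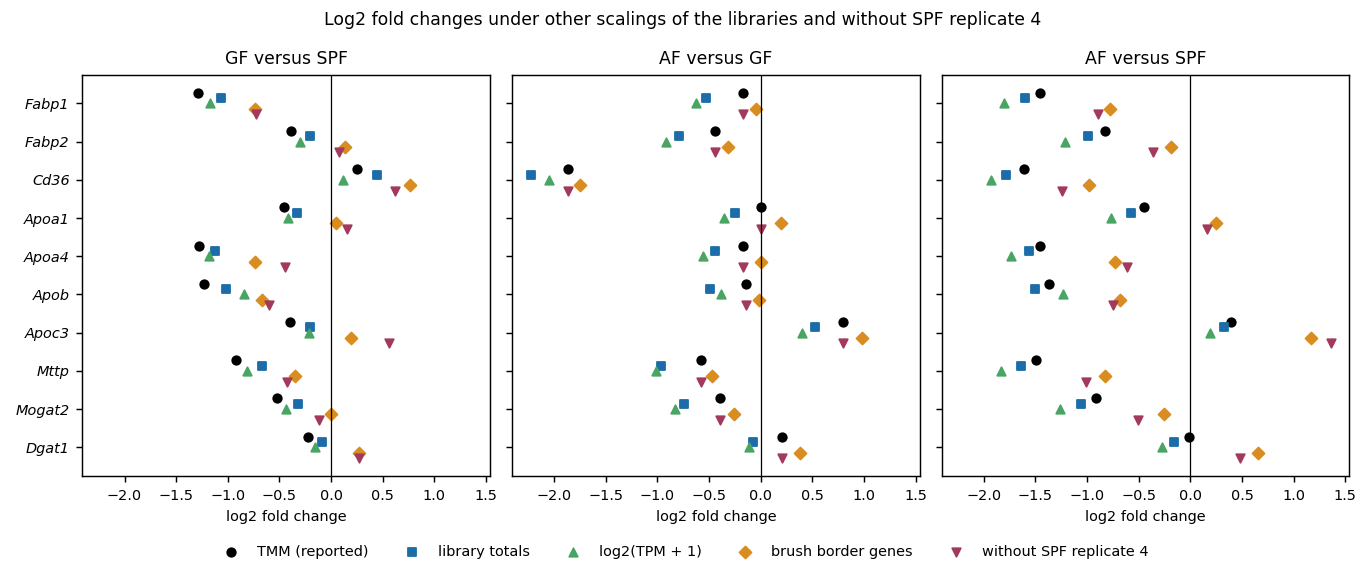
Log2 fold changes (horizontal axis) of the 10 genes in the 3 comparisons under TMM, library totals, log2(TPM + 1) and brush border scaling, and without SPF replicate 4. Fabp1, Fabp2, Cd36, Apoa4, Apob, Mttp and Mogat2 stay below 0 in AF versus SPF under each setting shown. Apoa1 and Dgat1 cross 0 there under brush border scaling and without SPF replicate 4.

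Other genes of fat handling, in 5 lists of 91 entries, gave 90 with a match and 86 tested, of which edgeR's quasi-likelihood test called 0 in each comparison. At an unadjusted p below 0.05, 10 were lower and 3 higher in GF versus SPF, 1 lower and 4 higher in AF versus GF, and 15 lower and 6 higher in AF versus SPF. The shares of all tested genes at that level were 3.51% lower and 3.2% higher, 2.07% and 1.52%, and 6.52% and 4.76%. The median log2 fold change of the 86 genes was -0.41, 0.07 and -0.23. All counts and medians of these lists are under TMM scaling with SPF replicate 4 included, and other settings are not given for them. Of 20 tested genes of lipoprotein assembly and export, 18 were lower in GF than in SPF (5 at an unadjusted p below 0.05, median -0.55) and 17 were lower in AF than in SPF (9 at that level, median -0.53). Of all tested genes 48.1% and 49.1% were lower in these 2 comparisons. For cholesterol uptake, esterification and efflux, 9 of 12 were lower in GF versus SPF and 6 of 12 in AF versus SPF, with medians of -0.41 and 0.03. For fatty acid uptake and activation, 8 and 6 of 10 were lower in the 2 comparisons, for glyceride synthesis and lipid droplets 16 and 13 of 22, and for regulators 17 and 14 of 22. Between AF and GF, where 52.9% of all tested genes were lower, 14 of 20 assembly genes were lower (median -0.15), whereas 7 of 10 uptake genes, 16 of 22 glyceride genes and 8 of 12 cholesterol genes were higher (medians 0.21, 0.22 and 0.07), as were 12 of 22 regulators (median 0.01).

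Each list's most abundant genes by TPM were as follows. In lipoprotein assembly, Apoc2, the activator of lipoprotein lipase, was at 949 and 1992 CPM in SPF, 373 and 759 in GF, and 659 and 494 in AF, with log2 fold changes of -1.38 (SE 0.54) in GF versus SPF and -1.35 (SE 0.54) in AF versus SPF. P4hb, the partner subunit of the transfer protein, was at 1487 and 2308, 1320.1 and 1144, and 968 and 874 CPM, and its groups did not overlap, like those of Mttp. Its log2 fold change was -1.04 (SE 0.40) in AF versus SPF. Acsl5, which activates fatty acids with coenzyme A, was at 946 and 1883, 800.1 and 858, and 582 and 474 CPM, also without overlap, with -1.42 (SE 0.44) in AF versus SPF. None of these passed the adjusted threshold.

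Dbi, which binds acyl-CoA, had log2 fold changes of -0.57 (SE 0.27) in GF versus SPF and -0.24 (SE 0.27) in AF versus SPF. Cideb and Agpat2, of lipid droplets and glyceride synthesis, had -0.37 (SE 0.38) and -0.63 (SE 0.32) in GF versus SPF, and -0.03 (SE 0.38) and -0.42 (SE 0.32) in AF versus SPF. The sterol exporter subunit Abcg5 and the cholesterol importer Npc1l1 had -0.38 (SE 0.50) and -0.51 (SE 0.48) in GF versus SPF, and 0.33 (SE 0.50) and -0.44 (SE 0.48) in AF versus SPF. Creb3l3, a transcription factor known to act on apolipoprotein genes, had -0.68 (SE 0.57) and 0.05 (SE 0.57).

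Scarb1, a brush border receptor for lipids and carotenoids, was chosen after its values were seen, as a neighbour of Cd36 in its protein family. Its values were 9.57 and 30.9 CPM in SPF, 6.60 and 16.2 in GF, and 730.5 and 558 in AF, so that both AF libraries were far above the other 4. The log2 fold change was 5.83 (SE 0.79) in AF versus GF and 4.99 (SE 0.76) in AF versus SPF, with adjusted p of 0.563 and 0.259 by edgeR's quasi-likelihood test with Benjamini-Hochberg adjustment. It passed the threshold in 8 of 17 alternatives in each of the 2 comparisons, DESeq2 and limma among them. Isx, a transcription factor known to repress Scarb1 and likewise chosen after its values were seen, was called in both, with a log2 fold change of -6.25 (adjusted p = 0.0186) in AF versus GF and -6.27 (adjusted p = 0.0156) in AF versus SPF by the same test. Per length, the ratio of Scarb1 to Cd36 was 0.320 and 0.626 in SPF, 0.178 and 0.363 in GF, and 62.9 and 53.2 in AF.

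Of 2436 other genes with a mean of at least 50 CPM, the 5 whose centred log2 CPM over the 6 libraries lay nearest the members' mean profile were Pdzk1, Sec14l2, Cyp2d26, H2-Q2 and Mtmr4, with root mean square differences of 0.039, 0.046, 0.054, 0.054 and 0.084. All of them were highest in SPF replicate 4 and lowest in AF replicate 3, Pdzk1 for example at 448 and 144 CPM. The members themselves lay from 0.15 (Mogat2 and Fabp2) to 0.64 (Apoc3) and 0.67 (Cd36) from their own mean. The 5 genes were picked for the smallest distance of 2436, so setting them against the members does not show how alike the members are. The likeness over 6 libraries is a description, since the values of all genes in a library share its depth, scaling and cell makeup.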

How the data were processed

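Per the labels' protocols, RNA of sorted small intestinal epithelial cells was purified with RNeasy columns and made into TruSeq libraries. Per the submitters' processing notes, the tools were STAR 2.5.2b, edgeR 3.16.5 and RSEM, on the GRCm38/mm10 genome. The strand setting, annotation release and RSEM version were not given in the sources used here. Per the file headers, the authors deposited RSEM expected counts, unscaled between libraries, TPM values, scaled per length and library, and a posterior standard deviation of each count. For the 10 genes that deposited standard deviation was at most 0.0371% of the count.

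Expected counts were rounded (23.5% of values above 0 were not whole). Symbols (51633 of 51912 genes) and 1-based coordinates came from GENCODE M21 (GRCm38). After filterByExpr and TMM, edgeR's quasi-likelihood F test was fitted on all 6 libraries over 13644 genes, with Benjamini-Hochberg adjustment, and genes were called at 0.05. The residual degrees of freedom were 3, and the biological coefficient of variation was 0.368. A standard error is the size of the log2 fold change over the root of its F value. Libraries of a group differed beyond sampling noise (chi-square per gene 194.7, 239 and 44.6 in SPF, GF and AF), so no pair was counted as 1 library; this does not show that they came from separate mice. The tools were DESeq2 1.42.0, limma 3.58.1 and edgeR 4.0.16, run in R 4.3.3 with version 1.17.8 of the data.table package.

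Genes named are the 10 members, of each fat handling list those past the threshold and the 2 of highest mean TPM, at most 3 genes of a marker list, and the 5 genes nearest the members' mean profile; others are said to be chosen after their values were seen. The members, lists and tests were chosen with earlier results of these data known. Alternatives were other scalings, filters, tools and thresholds, only the 2 groups compared, and each library left out.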

Additional observations from a re-analysis of the deposited data

How the results depend on the processing

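The limits are 2 libraries per group, 1 SPF library that stands apart, and a spread shared across all genes; depth is not the limit for the members, whose lowest count was 130. No paired analysis was possible because the groups share only replicate number 3, fewer than 2 numbers. Over the 10 members and Scarb1, 496 fold changes under alternatives kept their direction and side of the threshold, 27 passed the threshold only there and 38 changed sign; the cause was not tested.

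The number of members called (0 each) became 1 in AF versus GF without a low-count filter, by the likelihood ratio test and by DESeq2, and in AF versus SPF 1, 2 and 3 under the same settings; leaving out a library gave 0 to 0 members in GF versus SPF, 0 to 0 in AF versus GF and 0 to 2 in AF versus SPF. The number of genes called in GF versus SPF (2) was 0 with library totals, with brush border scaling and with only the 2 groups compared, 484 without a low-count filter, 97 by the likelihood ratio test, 80 by DESeq2, 5 and 4 by limma on log2(TPM + 1) and log2(TPM + 0.1), and 0 to 369 leaving out a library. In AF versus GF (2) it was 4 with library totals and with brush border scaling, 264, 53, 51, 9 and 5 under the same filter, test and limma settings, 8 with only 2 groups, and 0 to 9 leaving out a library. In AF versus SPF (6) it was 804 without a filter, 298 by the likelihood ratio test, 269 by DESeq2, 2 with only 2 groups, and 0 to 625 leaving out a library, the highest without SPF replicate 3.

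Brush border scaling turned the log2 fold change in GF versus SPF of Fabp2 (0.13), Apoa1 (0.048), Apoc3 (0.19), Mogat2 (9.5e-05) and Dgat1 (0.27), in AF versus GF of Apoa4 (0.0038), and in AF versus SPF of Apoa1 (0.24) and Dgat1 (0.65). In AF versus GF, Apoa1, near 0 at first, was -0.0018 with median-of-ratios scaling and with DESeq2, -0.25 with library totals, -0.013 without a filter, -0.0015 with the 1 CPM filter, -0.35 by both limma settings and -0.0026 with only 2 groups, and Dgat1 was -0.074 with library totals and -0.11 by both limma settings. Leaving out a library turned the following, given as ranges. In GF versus SPF these were Fabp2 (-0.75 to 0.077), Cd36 (-0.053 to 0.62), Apoa1 (-1.09 to 0.16), Apoc3 (-0.98 to 0.56), Dgat1 (-0.67 to 0.27) and Scarb1 (-1.62 to 0.23). In AF versus GF they were Fabp1 (-0.42 to 0.024), Apoa1 (-0.43 to 0.63), Apoa4 (-0.60 to 0.45), Apob (-0.39 to 0.048) and Dgat1 (-0.12 to 0.65), and in AF versus SPF Apoa1 (-0.88 to 0.16), Apoc3 (-0.19 to 1.36) and Dgat1 (-0.39 to 0.48). Library totals moved the median of all genes by 0.14, -0.36 and -0.22 in the 3 comparisons.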
